A study of Mus musculus with 8 samples.

Results

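The cytosolic RNA sensing genes examined here were Ddx58, Ifih1, Dhx58, Mavs, Tlr3, Ddx60, Tbk1, Irf3 and Adar. They were taken from the table by gene symbol, and all 9 were found among its 22520 genes. The table held 4 WT and 4 LRP1 eKO libraries of mRNA from C57BL/6 mice at postnatal day 14. The cells were isolated as liver microvascular ECs, and the labels call them liver microvesicular cells. LRP1 eKO mice were LRP1 f/f; Cdh5-CreER+/-, and their WT littermates were LRP1 f/f; Cdh5-CreER-/-, so that both groups carried the floxed alleles and LRP1 eKO mice alone carried the inducible recombinase CreER under the endothelial Cdh5 promoter. The presence of CreER and the loss of Lrp1 therefore cannot be told apart, and the agent and time of induction are not given in the sources used here. ECs were captured with beads carrying an antibody to PECAM-1. The labels do not say that each library came from a separate mouse, so that p-values measure the spread between these libraries.

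RNA of viruses, and double-stranded RNA of the cell itself, is recognized in the cytosol by the RIG-I-like receptors, a family of RNA helicases, and in endosomes by Toll-like receptors. RIG-I and MDA5 pass the signal to the mitochondrial adaptor MAVS, which engages the kinase TBK1, and TBK1 phosphorylates IRF3, a transcription factor that activates type I interferon genes. Interferon acts through its receptor on a complex that includes STAT2 and IRF9, which binds the interferon-stimulated response element in target genes, and several of the sensors are themselves targets of this kind. ECs of many organs carry this pathway.

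Signals are quantile-normalized values with no stated unit, so that levels were compared between libraries for 1 gene and not between genes. Sums over marker lists are the exception, and genes with high signals weigh most in them. Fold changes are differences of mean log2(signal + 1), LRP1 eKO minus WT, with limma's standard error (SE) and 95% interval and a p adjusted by the Benjamini-Hochberg method over 11391 tested genes. A gene was called at an adjusted p below 0.05 with a change of at least 2-fold, or at the adjusted p alone where this is said. Each member was also tested with an exact two-sided permutation test, for which 0.029 is the smallest p that 2 groups of 4 allow. Lrp1, the targeted gene, fell from a mean signal of 65.5 ± 13.3 in WT to 4.41 ± 1.65 in LRP1 eKO (SD, n = 4 per group; limma adjusted p = 2.8e-06).

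The sensors and Adar were upregulated in LRP1 eKO libraries, whereas the adaptor, the kinase and the transcription factor that follow them were not called. Ddx58, Ifih1, Dhx58 and Adar, 4 of the 9 genes, passed both thresholds, beside 0.869% of all genes tested. Tlr3 and Ddx60 passed the adjusted p alone, which gave 6 of 9 genes higher, beside 19.0% of all genes. Mavs, Tbk1 and Irf3 passed neither, and 0 of the 9 genes were lower, where 22.2% of all genes were lower at the adjusted p and 0.790% were lower past both thresholds. Ddx60 entered the test only through LRP1 eKO libraries, since the filter required 4 or more libraries to reach a signal of 1 and all 4 WT signals were below 1. The 4 genes also passed 2-fold with a pseudocount of 0.1, but a pseudocount of 5, which shrinks the change of low signals, left 0 of the 9 genes past 2-fold, with values of 0.92 for Ddx58, 0.88 for Ifih1, 0.66 for Dhx58 and 0.84 for Adar, and the same 6 genes past the adjusted p. The median log2 fold change was 0.79 over the 8 genes other than Ddx60 and -0.01 over all genes. In each of the 6 genes that rose, every LRP1 eKO library was above every WT library (exact permutation p = 0.029 for each gene, unadjusted), as in 20.0% of all genes tested. For Ddx60 the filter fixed this order, so that its permutation p, its adjusted p and its place among the 6 genes are no test.

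**Figure D1:**
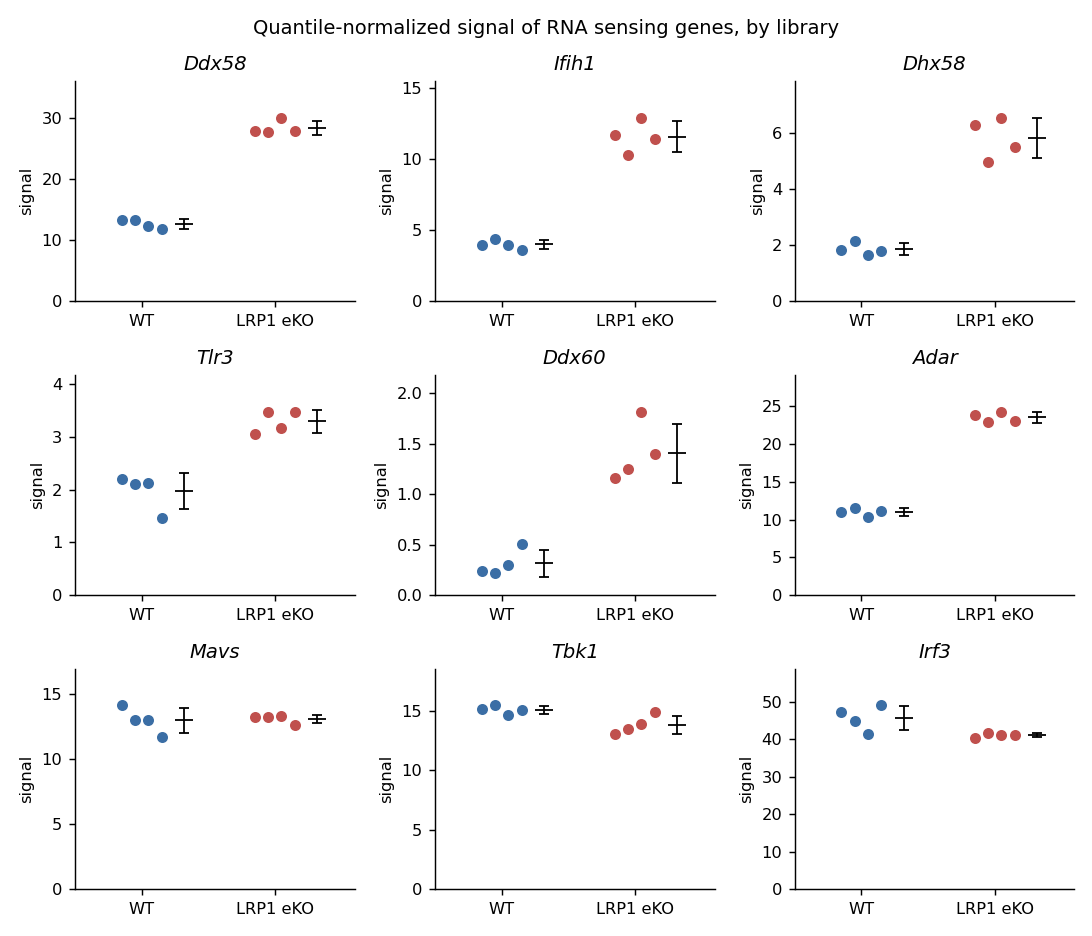
Quantile-normalized signal (y axis from 0, no stated unit) of the 9 RNA sensing genes in 4 WT (blue) and 4 LRP1 eKO (red) libraries, in order of replicate number from left to right, with mean and SD in black. The groups are apart for Ddx58, Ifih1, Dhx58, Tlr3, Ddx60 and Adar and overlap for Mavs, Tbk1 and Irf3.

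Ddx58 encodes RIG-I, the receptor for short double-stranded RNA with a triphosphate at its 5′ end. The gene lies on the minus strand of chromosome 4 of GRCm38, from 40203773 to 40239828. Its signals in WT replicates 1 to 4 were 13.4, 13.4, 12.3 and 11.8. In LRP1 eKO replicates 1 to 4 they were 28.0, 27.7, 30.1 and 27.9. The LRP1 eKO libraries were close to each other, with replicate 3 above the rest, and all were more than double the WT mean of 12.7 ± 0.787 (SD, n = 4). The LRP1 eKO mean was 28.4 ± 1.11 (SD, n = 4), with a log2 fold change of 1.10 (SE 0.055, 95% interval 0.98 to 1.22, limma adjusted p = 6.9e-07), so that the lower end of the interval fell just under 2-fold. RefSeq's window around the Ddx58 start, from 250 bases before to 50 after it, is printed because it holds the core of an interferon-stimulated response element, GAAANNGAAA searched on both strands. The match is in capitals and begins 2 bases after the start, on the strand opposite to the gene. The window is chr4:40239776-40240075 of GRCm38.p6, minus strand, written 5′ to 3′.
Ddx58 window: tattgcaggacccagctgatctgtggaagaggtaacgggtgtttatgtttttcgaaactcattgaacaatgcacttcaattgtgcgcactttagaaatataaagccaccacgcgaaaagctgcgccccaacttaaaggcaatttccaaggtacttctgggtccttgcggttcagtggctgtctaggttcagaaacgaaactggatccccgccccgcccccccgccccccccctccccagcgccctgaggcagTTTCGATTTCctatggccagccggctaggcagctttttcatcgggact

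Ifih1 encodes MDA5, the receptor for long double-stranded RNA. It lies on the minus strand of chromosome 2, from 62595798 to 62646255. Its WT signals were 3.98, 4.41, 3.94 and 3.64 in replicates 1 to 4. In LRP1 eKO replicates they were 11.7, 10.3, 12.9 and 11.4. The lowest LRP1 eKO library, replicate 2, was still more than double the highest WT library. The mean rose from 3.99 ± 0.314 to 11.6 ± 1.09 (SD, n = 4 per group), a log2 fold change of 1.33 (SE 0.075, 95% interval 1.16 to 1.5, limma adjusted p = 1.6e-06), which was rank 49 of all genes by size of the increase and the largest of the 9 genes on this scale. The Ifih1 window, chr2:62646206-62646505 on the minus strand, also held the core, on the strand of the gene and beginning 32 bases after the start, and is shown for that match.
Ifih1 window: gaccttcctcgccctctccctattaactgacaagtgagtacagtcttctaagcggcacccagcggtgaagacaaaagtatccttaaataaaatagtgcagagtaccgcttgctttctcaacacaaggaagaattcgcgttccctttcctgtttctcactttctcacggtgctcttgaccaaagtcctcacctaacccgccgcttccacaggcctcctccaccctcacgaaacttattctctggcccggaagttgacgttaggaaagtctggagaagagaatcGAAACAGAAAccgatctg

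Dhx58 encodes LGP2, the third RIG-I-like receptor, which binds RNA but lacks the signalling domains of RIG-I and MDA5 and modulates both. The gene is on the minus strand of chromosome 11, from 100694884 to 100704271. The WT signals were 1.83, 2.17, 1.66 and 1.80, and the LRP1 eKO signals were 6.29, 4.99, 6.56 and 5.52. As for Ddx58 and Ifih1, LRP1 eKO replicate 3 was the highest and replicate 2 the lowest of its group, and the lowest was above all WT libraries. The mean rose from 1.87 ± 0.214 to 5.84 ± 0.717 (SD, n = 4 per group), with a log2 fold change of 1.25 (SE 0.088, 95% interval 1.06 to 1.45, limma adjusted p = 6e-06). The interval lay above 2-fold for Ifih1 and Dhx58, and the intervals of the 3 RIG-I-like receptors overlapped each other. Dhx58 shares 2637 bases with the antisense gene Dhx58os, for which no values were given. The strand setting of the counting is not stated, so that reads of the pair cannot be told apart.

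Tlr3 encodes the endosomal receptor for double-stranded RNA, which signals through TRIF rather than MAVS. On chromosome 8, it spans 45395665 to 45411080 on the minus strand. Its signals were 2.20, 2.11, 2.12 and 1.47 in WT libraries and 3.06, 3.47, 3.17 and 3.48 in LRP1 eKO libraries. WT replicate 4 was well below the other WT libraries, and the groups did not overlap. The increase, from 1.98 ± 0.338 to 3.30 ± 0.211 (SD, n = 4 per group), was 0.54 on the log2 scale (SE 0.089, 95% interval 0.34 to 0.73, limma adjusted p = 0.0013), and the whole interval lay below 2-fold and below the intervals of Ddx58, Ifih1 and Dhx58. Tlr3 shares 698 bases with the antisense gene Gm45542, for which no values were given.

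Ddx60 encodes a helicase that binds viral RNA and is reported to assist RIG-I-like receptors. It lies on the plus strand of chromosome 8, from 61928087 to 62038244. Its signals were 0.235, 0.217, 0.303 and 0.507 in WT libraries and 1.16, 1.25, 1.82 and 1.40 in LRP1 eKO libraries. All WT libraries were close to the bottom of the scale, where the depth behind a value is unknown. The mean was 0.315 ± 0.133 in the WT group and 1.41 ± 0.294 in the LRP1 eKO group (SD, n = 4 per group), with a log2 fold change of 0.87 (SE 0.10, 95% interval 0.64 to 1.10, limma adjusted p = 0.00017). The pseudocount of 1 sets this value, since the ratio of the means was 4.47 and a pseudocount of 0.1 gave a log2 fold change of 1.89, past the 2-fold threshold. The Ddx60 window, chr8:61927837-61928136 on the plus strand, held 2 cores, 53 and 19 bases before the start, with the same 10 letters in both.
Ddx60 window: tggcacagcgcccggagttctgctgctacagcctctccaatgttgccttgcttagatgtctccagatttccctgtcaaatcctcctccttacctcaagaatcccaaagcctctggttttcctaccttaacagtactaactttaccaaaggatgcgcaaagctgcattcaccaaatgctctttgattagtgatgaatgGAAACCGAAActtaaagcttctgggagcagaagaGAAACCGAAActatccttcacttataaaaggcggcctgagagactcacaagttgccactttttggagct

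Adar encodes ADAR1, which converts adenosine to inosine in double-stranded RNA and so limits the recognition of the cell's own RNA by MDA5. It lies on the plus strand of chromosome 3, from 89715022 to 89753446. The WT signals were 11.0, 11.5, 10.3 and 11.2, and the LRP1 eKO signals were 23.9, 22.9, 24.3 and 23.0. Both groups were tight, and the LRP1 eKO libraries were all about double the WT libraries. The mean rose from 11.0 ± 0.532 to 23.5 ± 0.687 (SD, n = 4 per group), a log2 fold change of 1.04 (SE 0.050, 95% interval 0.92 to 1.15, limma adjusted p = 5.4e-07), which passed the 2-fold threshold narrowly. ADAR1 is made as a short constitutive form and a long interferon-inducible form from different starts, and the table gives 1 value for the gene, so that the forms were not separated. RefSeq gives 3 windows for Adar, and 0 of them held the core. The window farthest downstream, chr3:89730468-89730767, held a shorter form of it, GAAANNGAA, which is contained in every core and was chosen after the windows had been read. Its 2 matches, 249 bases before and 33 bases after the start, are in capitals, and the window also held the gamma-activated sequence TTCNNNGAA 22 bases after the start. Adar overlaps Chrnb2 on the other strand, whose signal was 0.0925 ± 0.0364 in the WT group and 0.103 ± 0.00961 in the LRP1 eKO group (SD, n = 4 per group).
Adar window: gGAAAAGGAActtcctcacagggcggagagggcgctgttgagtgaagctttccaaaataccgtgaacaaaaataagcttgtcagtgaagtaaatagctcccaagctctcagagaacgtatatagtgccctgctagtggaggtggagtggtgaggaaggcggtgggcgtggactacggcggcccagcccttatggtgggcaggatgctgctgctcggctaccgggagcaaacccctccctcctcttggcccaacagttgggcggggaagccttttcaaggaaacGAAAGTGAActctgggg

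Mavs encodes the adaptor through which RIG-I and MDA5 signal. Mavs is on the plus strand of chromosome 2, from 131234063 to 131248025. The WT signals of 14.1, 13.0, 13.0 and 11.7 spanned the LRP1 eKO signals of 13.2, 13.2, 13.3 and 12.6. The groups overlapped fully, with means of 13.0 ± 0.961 and 13.1 ± 0.307 (SD, n = 4 per group). The log2 fold change was 0.02 (SE 0.058, 95% interval -0.11 to 0.15, limma adjusted p = 0.84, exact permutation p = 0.74). This interval did not reach those of the 6 genes that rose, and a change as large as that of Tlr3 lay outside it. The Mavs window, chr2:131233813-131234112 on the plus strand, is shown for contrast, and none of the 4 motifs searched was found in it.
Mavs window: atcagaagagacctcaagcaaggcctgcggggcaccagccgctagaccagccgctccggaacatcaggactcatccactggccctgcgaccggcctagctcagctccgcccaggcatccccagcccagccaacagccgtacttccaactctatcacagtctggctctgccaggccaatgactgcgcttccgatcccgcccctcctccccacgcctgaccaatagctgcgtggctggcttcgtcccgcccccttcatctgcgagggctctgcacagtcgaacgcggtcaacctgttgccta

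Tbk1 encodes the kinase that activates IRF3. It lies on the minus strand of chromosome 10, from 121546455 to 121586787. The signals were 15.2, 15.5, 14.7 and 15.1 in WT libraries and 13.1, 13.5, 13.9 and 14.9 in LRP1 eKO libraries. LRP1 eKO replicates 1 to 3 were below all WT libraries and replicate 4 was within the WT range. The means were 15.1 ± 0.330 and 13.8 ± 0.789 (SD, n = 4 per group), with a log2 fold change of -0.12 (SE 0.051, 95% interval -0.24 to -0.01, limma adjusted p = 0.084, exact permutation p = 0.057). Irf3, the transcription factor, lies on the plus strand of chromosome 7, from 44997648 to 45002848. Its signals were 47.3, 45.0, 41.5 and 49.1 in WT libraries and 40.4, 41.8, 41.2 and 41.2 in LRP1 eKO libraries, and WT replicate 3 was within the range of the LRP1 eKO libraries. The means were 45.7 ± 3.31 and 41.2 ± 0.555 (SD, n = 4 per group), with a log2 fold change of -0.15 (SE 0.054, 95% interval -0.27 to -0.02, limma adjusted p = 0.054, exact permutation p = 0.057). Neither gene passed the adjusted p, although both intervals lay below 0, and Tbk1 reached an adjusted p of 0.044 without LRP1 eKO replicate 4 and Irf3 of 0.015 without WT replicate 3 (limma). With weights estimated for each library the adjusted p was 0.033 for Tbk1 and 0.030 for Irf3. Over all the alternatives that were tested, the adjusted p was between 0.033 and 0.32 for Tbk1 and between 0.015 and 0.38 for Irf3. Irf3 shares 1065 bases with Bcl2l12 on the other strand, whose mean was 7.48 ± 1.25 in the WT group and 5.78 ± 0.528 in the LRP1 eKO group (SD, n = 4 per group), with a difference of -0.32 on the log2 scale and an adjusted p of 0.035 (limma), and reads of the pair cannot be told apart.

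**Figure D2:**
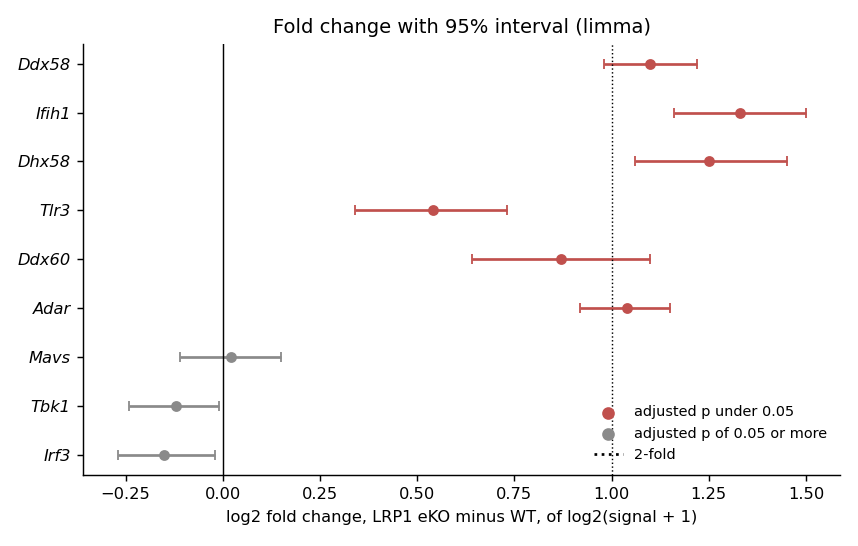
Log2 fold change of the 9 genes (x axis, LRP1 eKO minus WT, of log2(signal + 1)) with 95% intervals from limma, red where the adjusted p was below 0.05, with a dotted line at 2-fold. Ifih1 and Dhx58 lie wholly above the line, the intervals of Ddx58, Ddx60 and Adar cross it, and Mavs, Tbk1 and Irf3 sit near 0.

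The 8 genes that had a RefSeq window had 10 windows between them. The core was found in 3 of the 10, those of Ddx58, Ifih1 and Ddx60, and in 1131 of all 32851 windows of the same length (3.44%). The shorter form was found in 4 of the 8 genes, Adar being added, and in 8.56% of all windows. The gamma-activated sequence was found in 1 of the 10, a window of Adar, and in 8.30% of all windows. The forkhead site TGTTTAC was found in 0 of the 10 and in 3.65% of all windows. The windows of Tlr3, Mavs, Tbk1 and Irf3 held none of these letters, and a match or its absence is a description of these windows only.

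**Figure D3:**
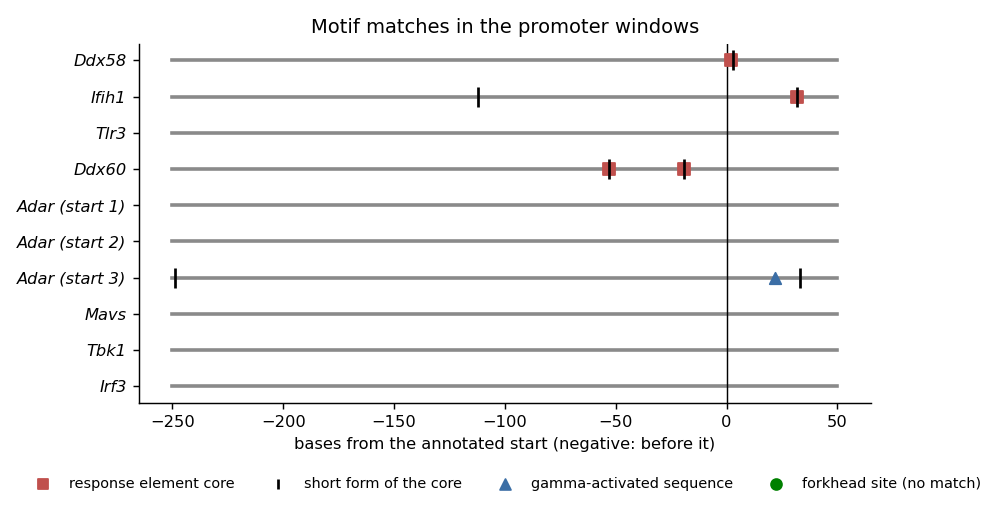
Matches of 4 motifs (symbols) in the RefSeq windows of 8 RNA sensing genes, by distance from the annotated start in bases (x axis, negative before the start). The core (red squares) is found in Ddx58, Ifih1 and Ddx60, and the 3 starts of Adar are drawn apart.

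Ddx58, Ifih1, Dhx58 and Adar shared 1 order within the LRP1 eKO group, with replicate 2 lowest, then replicates 4, 1 and 3. Tlr3 and Ddx60 had other orders, and in Tlr3 replicate 2 was the second highest. LRP1 eKO replicate 3 was the highest library of its group for 5 of the 6 genes that rose, all except Tlr3. Over the 8 libraries, Pearson's r of log2(signal + 1) was 0.996 between Ddx58 and Ifih1, 0.996 between Ifih1 and Dhx58, 0.936 between Ddx58 and Tlr3 and 0.201 between Ddx58 and Mavs. The points are 2 separate groups of 4 libraries that share a normalization, so that these values describe the genotype difference more than variation within a group. By the same measure, the genes most like Ddx58 were Parp14, Gm4070 and Trim30d (r from 0.997 to 0.998, n = 8), those most like Ifih1 were Oas3, Cyr61 and Parp14 (0.997 to 0.999), and those most like Adar were Irf7, Rtp4 and Tgtp1 (each 0.998). Dhx58 was most like Ifih1, Lgals3bp and Gys1 (0.995 to 0.996), Ddx60 most like Uba7, Rarb and 2200002D01Rik (0.983 to 0.987), and Tlr3 most like Dync1li2, Gpr64 and Mtap1b (0.996 to 0.997). The genes nearest to Mavs were Mtap7, Phf21a and Slc35e2 (0.942 to 0.951), those nearest to Tbk1 were Hnrpdl, Vwa3a and Sumo2 (0.952 to 0.954), and those nearest to Irf3 were Ing4, Deaf1 and Pkmyt1 (0.984 to 0.990).

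Of the other genes of the pathway, few moved as far as the sensors. The lists held 84 genes, of which 74 were tested, and 3 passed both thresholds, all higher. At the adjusted p alone, 22 of the 74 were higher, 6 were lower and 46 were not called, with a median log2 fold change of 0.09. The share of 22 of 74 can be read beside the 19.0% of all genes that were higher, and that of 6 of 74 beside the 22.2% that were lower. The 3 past both thresholds can be read beside the 0.869% of all genes that were higher past both. Zbp1, which is among the 22 and among the 3, entered the test through LRP1 eKO libraries alone, so that its place in these counts is no test. These shares also apply to the counts of each list below.

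Among the transcription factors, 4 of 9 tested genes were higher and 1 was lower at the adjusted p, and 2 passed both thresholds. Irf7 encodes the interferon-inducible factor that amplifies the production of type I interferon. Its signals were 10.7, 9.99, 9.07 and 11.2 in WT libraries and 69.1, 58.4, 69.1 and 63.5 in LRP1 eKO libraries, and every LRP1 eKO library was over 5 times the WT libraries. The log2 fold change was 2.55 (SE 0.075, limma adjusted p = 1.7e-08), in contrast to -0.15 for Irf3, its constitutive relative. Stat2 rose from 9.17 ± 0.198 to 23.1 ± 0.912 (SD, n = 4 per group; log2 fold change 1.25, limma adjusted p = 1.1e-07). Irf9, a partner of Stat2 in the interferon-activated complex, was higher by 0.99 on the log2 scale (limma adjusted p = 1.9e-06), just under 2-fold. Irf1 was the factor that was lower, with a value of -0.25 (limma adjusted p = 0.014).

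Among other RNA-binding sensors, 4 of 14 tested genes were higher and 1 was lower at the adjusted p, and Zbp1 alone passed both thresholds. Zbp1 encodes a sensor of left-handed double-stranded nucleic acid that can trigger cell death. Its signals were 0.347, 0.305, 0.508 and 0.729 in WT libraries and 10.6, 5.18, 8.13 and 7.19 in LRP1 eKO libraries. The WT signals were all below 1, so that Zbp1, like Ddx60, entered the test through LRP1 eKO libraries alone. Its log2 fold change was 2.55 (SE 0.17, limma adjusted p = 4.8e-06). The filter fixed the order of its groups, so that its adjusted p and its place among the 4 higher genes are no test. Eif2ak2, which encodes PKR, the kinase that halts translation on double-stranded RNA, rose from 11.6 ± 1.13 to 23.0 ± 0.617 (SD, n = 4 per group; log2 fold change 0.93, limma adjusted p = 7.7e-06). Zc3hav1, encoding the antiviral protein ZAP that binds CpG-rich RNA, was higher by 0.70 on the log2 scale (limma adjusted p = 1.2e-05). The helicases Dhx9, Dhx15, Dhx33, Dhx36, Ddx1, Ddx3x and Ddx6, for which sensing has been described beside other roles, did not pass.

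The regulators and the signalling complex moved little. Of 12 tested regulators of the RIG-I-like receptors, 4 were higher and 1 was lower at the adjusted p, and the largest change was that of Trim25, the ubiquitin ligase of RIG-I, which rose from 10.4 ± 0.634 to 16.6 ± 1.15 (SD, n = 4 per group; log2 fold change 0.63, limma adjusted p = 6.4e-05). Of 16 tested genes of the adaptor and kinase complex, 4 were higher, 0 were lower and 12 did not pass. The largest change among them was that of Ikbke, the inducible relative of Tbk1, with signals from 7.00 to 8.65 in WT and from 9.47 to 10.3 in LRP1 eKO libraries (log2 fold change 0.33, limma adjusted p = 0.0035). Of 12 tested genes of RNA editing and decay, 4 were higher and 1 was lower, and the largest change was that of Samhd1, a nucleotide hydrolase (log2 fold change 0.50, limma adjusted p = 1e-04). None of these 3 lists had a gene past both thresholds.

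Of 6 tested endosomal receptors and chaperones, 1 was higher and 2 were lower at the adjusted p. Tlr7, the endosomal receptor for single-stranded RNA, had signals of 0.676, 1.05, 0.568 and 0.263 in WT libraries and 2.33, 0.240, 2.78 and 1.88 in LRP1 eKO libraries. LRP1 eKO replicate 2 was below every WT library, unlike in Tlr3, where it was 3.47, and the difference of Tlr7 did not pass (log2 fold change 0.68, 95% interval -0.01 to 1.37, limma adjusted p = 0.10).

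Interferon genes themselves were at or near 0. Ifnb1, encoding interferon beta, was listed at 0 in all 4 WT libraries and in LRP1 eKO replicates 1 and 3, and at 0.0405 and 0.0465 in replicates 2 and 4. Ifna2 was above 0 in LRP1 eKO replicate 1 alone, at 0.0278, and Ifna4, Ifna5, Ifnl2 and Ifnl3 were listed at 0 in all 8 libraries, whose depth is unknown. The receptor genes were not called, with log2 fold changes of 0.03 for Ifnar1 (95% interval -0.10 to 0.16, limma adjusted p = 0.71), -0.21 for Ifnar2 (95% interval -0.40 to -0.03, limma adjusted p = 0.064) and -0.06 for Ifnlr1 (limma adjusted p = 0.63). Jak1, a kinase of interferon signalling, had the largest change of the 5 tested genes of this list (log2 fold change 0.37, limma adjusted p = 8.7e-04). Of 18 tested interferon-stimulated genes, in contrast, all 18 were higher at the adjusted p, beside 19.0% of all genes. Both thresholds were passed by 15 of them, beside 0.869% of all genes that were higher past both. The median of the 18 was 2.23 on the log2 scale. Of the 18, 4 entered the test through LRP1 eKO libraries alone, and all 4 were among the 15. The place of these 4 in the counts is no test. The median of the other 14 was 2.38. Ifit1, which encodes a protein that binds RNA lacking the cap methylation of the host, rose from 1.78 ± 0.293 to 28.4 ± 1.25 (SD, n = 4 per group; log2 fold change 3.41, limma adjusted p = 2.6e-09). Ifit3, Ifi44 and Usp18 had log2 fold changes of 2.61 (limma adjusted p = 2.6e-09), 3.20 (2.6e-09) and 3.32 (3.7e-09), and the largest change that did not pass both thresholds was that of Oasl1 (0.83, 2.7e-05).

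**Figure D4:**
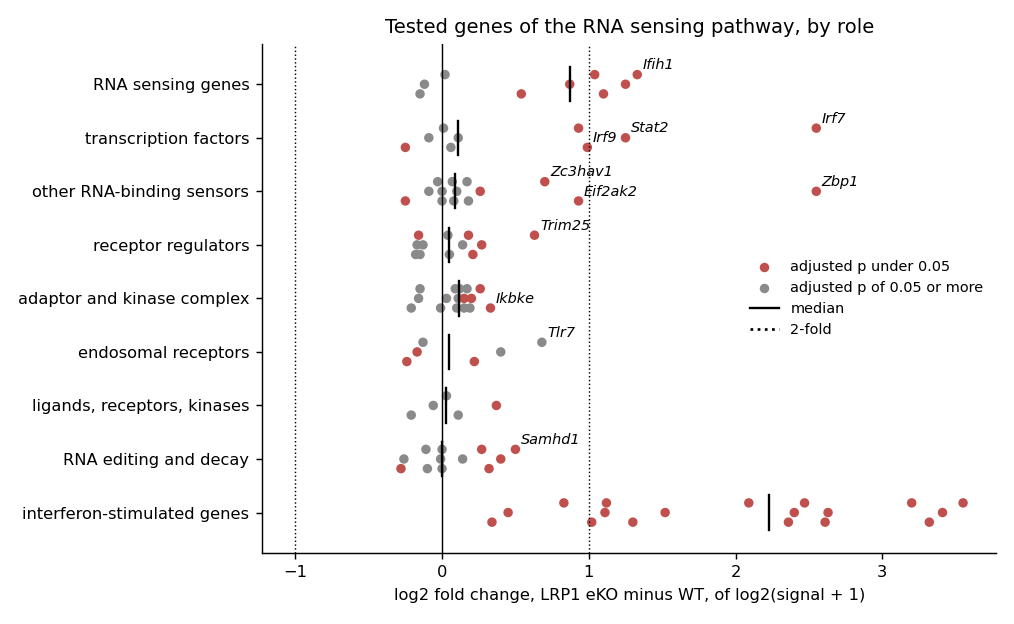
Log2 fold change (x axis, LRP1 eKO minus WT, of log2(signal + 1)) of the tested genes of each list (rows), red where the limma adjusted p was below 0.05, with black bars at the medians and dotted lines at 2-fold. The bar of the 9 RNA sensing genes falls on the value of Ddx60, 0.87, and the medians are 0.11 or less for the other pathway lists and 2.23 for interferon-stimulated genes.

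Markers of other cell types were present, and some lists, with Y chromosome genes, moved with genotype. The summed signal of 10 endothelial markers was 22.7 to 30.7 in WT and 35.5 to 51.8 in LRP1 eKO libraries, and none of the 10 was at 0 in all libraries. Eng made this separation, since the other 9 markers summed to 11.7 to 16.9 and 15.8 to 24.3, which overlap. Of the 6 endothelial markers tested, Eng and Cdh5 were higher at the adjusted p and 4 were not called. Among those fitted in an unfiltered table, Cldn5 was lower (log2 difference -0.32, limma adjusted p = 0.0069) and Tek was higher (0.22, 0.045). Erg and Vwf, fitted in the same way, were not called. Cdh5 and Pecam1 had WT means of 1.86 and 2.09, and 8 sinusoidal endothelial markers summed to 37.2 to 40.5 in WT and 38.1 to 60.6 in LRP1 eKO libraries. Most of the WT sum was Gata4, at 28.4 to 30.6. Gata4 was 27.7 to 30.8 in LRP1 eKO libraries, with a log2 fold change of -0.01. The 8 stellate cell and fibroblast markers summed to 975 to 1040 in WT and 908 to 1010 in LRP1 eKO libraries. Dcn and Col1a1 made up most of each sum. Dcn fell from a mean of 563 in WT to 457 in LRP1 eKO libraries (limma, log2 difference -0.30, adjusted p = 0.00054). Col1a1, Des and Pdgfrb did not pass. Without the filter, Colec11 fell (-0.53, 0.0016), Rgs5 rose (0.15, 0.0057), and Lrat and Reln were not called. Hepatocyte markers, 7 in all, summed to 62.5 to 91.4 in WT and 20.9 to 28.5 in LRP1 eKO libraries. For 5 skeletal muscle markers the sums were 21.1 to 37.6 and 3.50 to 4.19. The 7 dendritic cell markers summed to 3.98 to 4.91 in WT and 4.11 to 4.70 in LRP1 eKO libraries, most of it Zbtb46, while Siglech and Flt3 were at 0 in all libraries. The 4 Y chromosome genes summed to 17.7 to 21.4 in WT and 26.4 to 30.7 in LRP1 eKO libraries, and 3 of the 4 were higher at the adjusted p. The 7 lymphocyte markers summed to at most 0.191 in any library. In such mixed RNA, fewer cells of a type and less RNA per cell cannot be told apart. The changes of the sensors cannot be assigned to ECs, and the part of cell composition in them was not tested. The 13 macrophage and Kupffer cell markers summed to 189, 207, 222 and 113 in WT libraries and to 736, 52.8, 672 and 394 in LRP1 eKO libraries. Most of each sum was Lyz2 and Cd68. Of the 9 markers tested, Csf1r was higher at the adjusted p (log2 fold change 0.91, limma adjusted p = 0.03) and 8 were not called. In the unfiltered table Clec4f was higher (0.54, 0.016), and Timd4, Vsig4 and Fcgr1 were not called. Clec4f was at 0 in all 4 WT libraries and at 0.124 in LRP1 eKO replicate 2. LRP1 eKO replicate 2 had the lowest sum of all 8 libraries. Its signals were 27.7 for Ddx58, 10.3 for Ifih1, 4.99 for Dhx58, 3.47 for Tlr3, 1.25 for Ddx60 and 22.9 for Adar. All were above every WT library, which the filter fixed for Ddx60. Within the LRP1 eKO group, replicates 2 and 4 had the lowest macrophage sums, and they were also lowest for Ddx58, Ifih1, Dhx58 and Adar. Tlr3 and Ddx60 had other orders, and a link to macrophage content was not tested. With the mean of the macrophage list as a covariate, the log2 fold changes were 1.08 for Ddx58, 1.25 for Ifih1, 1.16 for Dhx58, 0.55 for Tlr3, 0.85 for Ddx60 and 1.02 for Adar. With the endothelial list they were 1.03, 1.18, 1.08, 0.50, 0.90 and 1.00, and the same 4 genes passed both thresholds and the same 6 the adjusted p in both fits. Each fit used the marker mean of each library, which does not measure cell composition, so that neither fit tests composition.

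**Figure D5:**
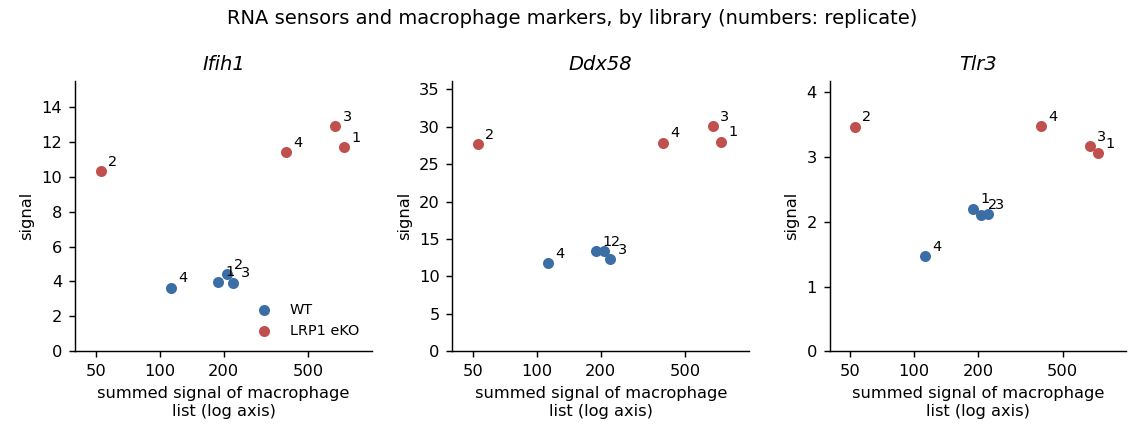
Signal of Ifih1, Ddx58 and Tlr3 (y axes from 0) against the summed signal of 13 macrophage and Kupffer cell markers (x axis, log scale) in WT (blue) and LRP1 eKO (red) libraries, numbered by replicate. LRP1 eKO replicate 2 has the lowest macrophage sum, 52.8. It is above all WT libraries on the y axes and is the lowest LRP1 eKO library for Ifih1 and Ddx58.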

How the data were processed

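The mRNA of liver cells isolated as ECs was sequenced from 4 WT and 4 LRP1 eKO TruSeq libraries. The authors deposited quantile-normalized signal for 22520 genes. Their methods describe mapping and counting on mm10, the submitters' processing notes name TopHat2 and Cufflinks, and neither describes the normalization or the unit before it. It gives libraries nearly equal totals (484445 to 485947), so that depth is unknown, a global shift is removed and no counting interval was computed.

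Log2(signal + 1) was tested with limma 3.58.1 in R 4.3.3 (genotype as the only term, mean-variance trend) for genes that reached a signal of 1 in 4 or more of the 8 libraries, and named genes that did not were fitted in an unfiltered table. The calculation was tested on simulated data. The 9 genes, the lists and the tests were chosen with earlier results of these data known. Besides the 9 genes, Lrp1, Ifnb1 and interferon receptors, genes named were the up to 4 past both thresholds with the smallest adjusted p in a list, its largest change that did not pass, and the 3 most correlated with each of the 9. Irf1, Zc3hav1, Ifna and Ifnl genes, Bcl2l12, Chrnb2, the 7 helicases and marker genes were added after their values were seen. Windows came from RefSeq on GRCm38.p6 and gene positions from GENCODE on GRCm38. Alternatives were pseudocounts of 0.1 and 5, other filters, no trend, robust moderation, array weights, centring, a replicate block, marker covariates, 1.5-fold, arithmetic means and leaving out libraries.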

Additional observations from a re-analysis of the deposited data

Results flagged for a closer look

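Of 18 groups of 4 libraries, 3 had 1 library far from the rest by Dixon's ratio of gap to range, where chance gives about 0.9 of 18. Ddx58 was highest in LRP1 eKO replicate 3, with a ratio of 0.897, and all LRP1 eKO libraries were above the WT libraries. Tlr3 was lowest in WT replicate 4, with a ratio of 0.883, and its log2 fold change without each library in turn was between 0.45 and 0.57. Mavs was lowest in LRP1 eKO replicate 4, with a ratio of 0.927, at 12.6 against 13.2 to 13.3.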

How the results depend on the processing

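Ddx58, Ifih1, Dhx58 and Adar passed both thresholds in every fit that left out 1 library, and the count was 4 in each. The counts that moved were those of scale and threshold. With a pseudocount of 5, 0 of the 9 genes reached 2-fold and the count over all genes was 66, while 6 of the 9 still passed the adjusted p. With a pseudocount of 0.1, the count over all genes was 315 and Ddx60 was added. With a minimum mean signal of 5, 6 of the 9 genes were tested and 3 passed the adjusted p, since Dhx58, Tlr3 and Ddx60 were below the minimum. At 1.5-fold, 8 other pathway genes and 724 genes in all passed. Over fits that left out 1 library, the number of the 9 genes past the adjusted p was between 5 and 7, that of other pathway genes past both thresholds between 2 and 4, and that of all genes between 164 and 246. The split of higher against lower genes was 99 to 90 and became 147 to 83 with array weights, 163 to 83 without LRP1 eKO replicate 2, 90 to 120 with the macrophage covariate and 91 to 129 with the endothelial covariate. Centring on a trimmed mean gave 98 to 92. Ddx60 fell below the filter when any 1 LRP1 eKO library was left out and was then not tested. No called direction reversed. Mavs, which was not called, changed sign from 0.02 to -0.02 with array weights, -0.04 with the endothelial covariate, and -0.03 without WT replicate 4, alone or together with LRP1 eKO replicate 2.

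Replicate numbers did not pair the libraries, with correlations of deviations of -0.09, -0.13, 0.18 and 0.04 for numbers 1 to 4 and 0 of 8 libraries correlating best with their own number. With the replicate block, 4 and 6 of the 9 genes, 3 other pathway genes and 102 higher and 90 lower genes (192) passed.

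Without depth or counts, differences at low signal, such as those of Ddx60, Zbp1 and Ifnb1, have no counting error. Spread between libraries was the measure of error, and CreER, age of induction and mixed cell types could not be tested.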
